A study of Drosophila melanogaster with 12 samples.

Results

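Carboxylesterases are serine hydrolases that split ester bonds in lipids, plant toxins, insecticides and volatile signals. In Drosophila melanogaster a block of alpha-esterase genes lies side by side on chromosome arm 3R, and Est-Q and Est-6 lie on arm 3L. The best known member of the block, alpha-Est7, corresponds to the esterase in which sheep blowflies acquire organophosphate resistance, and the secreted esterase of Est-6 is known from the male reproductive tract and from the antenna, where it acts on odorant esters. The genes described here are alpha-Est1, alpha-Est2, alpha-Est3, alpha-Est5, alpha-Est7, alpha-Est8, alpha-Est9, alpha-Est10, Est-Q and Est-6. They were taken from the array's annotation, which assigns 10 of its 13966 probe sets (not counting controls) to 8 of these 10 genes. Alpha-Est1 and Est-6 have no probe set in that table and were not analysed here. Alpha-Est3 and alpha-Est7 have 2 probe sets each.

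RNA came from heads of 5-day-old Canton-S males, a laboratory wild type, at generation 21 of a selection experiment, and each of the 12 samples was read on 1 single-colour Affymetrix array. Aggressive I and aggressive II are populations selected for male aggression. Neutral I and neutral II are reference populations, whose males were taken at random from a cage of 120 males after 15 to 30 aggressive males had been removed, over the course of the selection. By the study's own description they were selected for a decrease without a significant effect. Each population has 3 arrays, and the populations are also written AI, AII, NI and NII. On 2 of the NI arrays the line label lacks the word selected, which all others have, and the group was taken from the sample titles throughout. Males were frozen in groups of about 120 and stored in groups of about 40, so each array reads many pooled heads. In such bulk RNA, fewer cells of a type and less RNA per cell cannot be told apart. Nothing in the labels tells separate cultures from repeat samplings within a population, so tests between populations measure the spread between arrays, which may be technical.

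The values are MAS5 signals, the Affymetrix summary of a probe set in intensity units, with array medians between 962.4 and 1050. Arrays correlated with r from 0.945 to 0.970. The neuronal genes nSyb and elav and the photoreceptor genes Arr2 and trp were above the brightness filter used below, with Arr2 at a mean signal of 191585. Of 9 male reproductive tract genes, 7 were below it, and the summed signal of that list, which EbpIII dominates, overlapped between regimes (170910 to 212262 in aggressive and 157364 to 200156 in neutral arrays). Summed midgut, fat body and neuronal signal overlapped between regimes as well. The fat body sum (6 of 6 listed genes measured, none at 0, most of it Lsp2) did not overlap between populations of the same regime. It was 95617 to 102892 in aggressive I against 67153 to 75234 in aggressive II, and 58930 to 70039 in neutral I against 97346 to 106120 in neutral II. The summed signal of 4 antennal genes was 839.1 to 921.1 in aggressive I against 1453 to 2484 in the other populations. Of these genes only Obp83b (mean signal 808.8) was above the filter, and lush, Orco and Snmp1 were below it.

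Of the 10 probe sets, 8 (7 genes) had a mean signal above the filter at the 40th percentile, an intensity of 641.2, and entered the tests with 8379 probe sets in all. Both probe sets of alpha-Est3 lay below it. The group was chosen by signals of the aggressive against neutral contrast, in which Est-Q and alpha-Est8 had passed, and filled up with the related genes of the annotation. All values of that contrast are therefore given as a description, and its calls for the members are stated only as the basis of the choice, not as a test. Differences between populations of the same regime are separate contrasts and were tested. In a regime fit with population as a random block, as used below, such differences add to the spread. Passing that fit therefore favours small ones, and for Est-Q and alpha-Est8 the tests within regimes are not independent of the choice.

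Est-Q (CG7529, arm 3L), an esterase gene, had a lower signal in aggressive than in neutral heads. On the 3 arrays of AI it read 4899.9, 4557 and 5006, and on those of AII 4175, 3958 and 4459.6. On the NI arrays it read 7233, 6658 and 6792, and on the NII arrays 6367, 6584 and 6502. All 6 aggressive arrays lay below all 6 neutral arrays, as for 0.609% of all tested probe sets. The population order from low to high was aggressive II, aggressive I, neutral II and neutral I, and in deposited signal no array of one population reached into another. Of the 8379 probe sets, 0.215% showed such a separation of all 4 populations. After each array was centred on its median, the neutral populations overlapped and the separation no longer held. The aggressive minus neutral difference of Est-Q was -0.55 on the log2 scale (SE 0.087, 95% interval -0.73 to -0.36), or 1.46-fold.

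Alpha-Est8 (CG1121, arm 3R), a member of the alpha-esterase block, had the opposite order. On the AI arrays it read 7175, 6146 and 6683, and on the AII arrays 8318, 7905 and 7905. On the NI arrays it read 3691, 5309 and 4841, and on the NII arrays 5182, 4012 and 3458. All aggressive arrays lay above all neutral arrays, as for 0.621% of all tested probe sets, with a gap of 837 units between NI array 2 and AI array 2. Aggressive II lay wholly above aggressive I, while the neutral populations overlapped. The arrays scattered more in the neutral populations, where the SD was 18.1% and 20.9% of the mean, than in the aggressive ones, where it was 7.72% and 2.96%. The aggressive minus neutral difference was 0.75 (SE 0.13, 95% interval 0.47 to 1.04), or 1.69-fold.

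**Figure D1:**
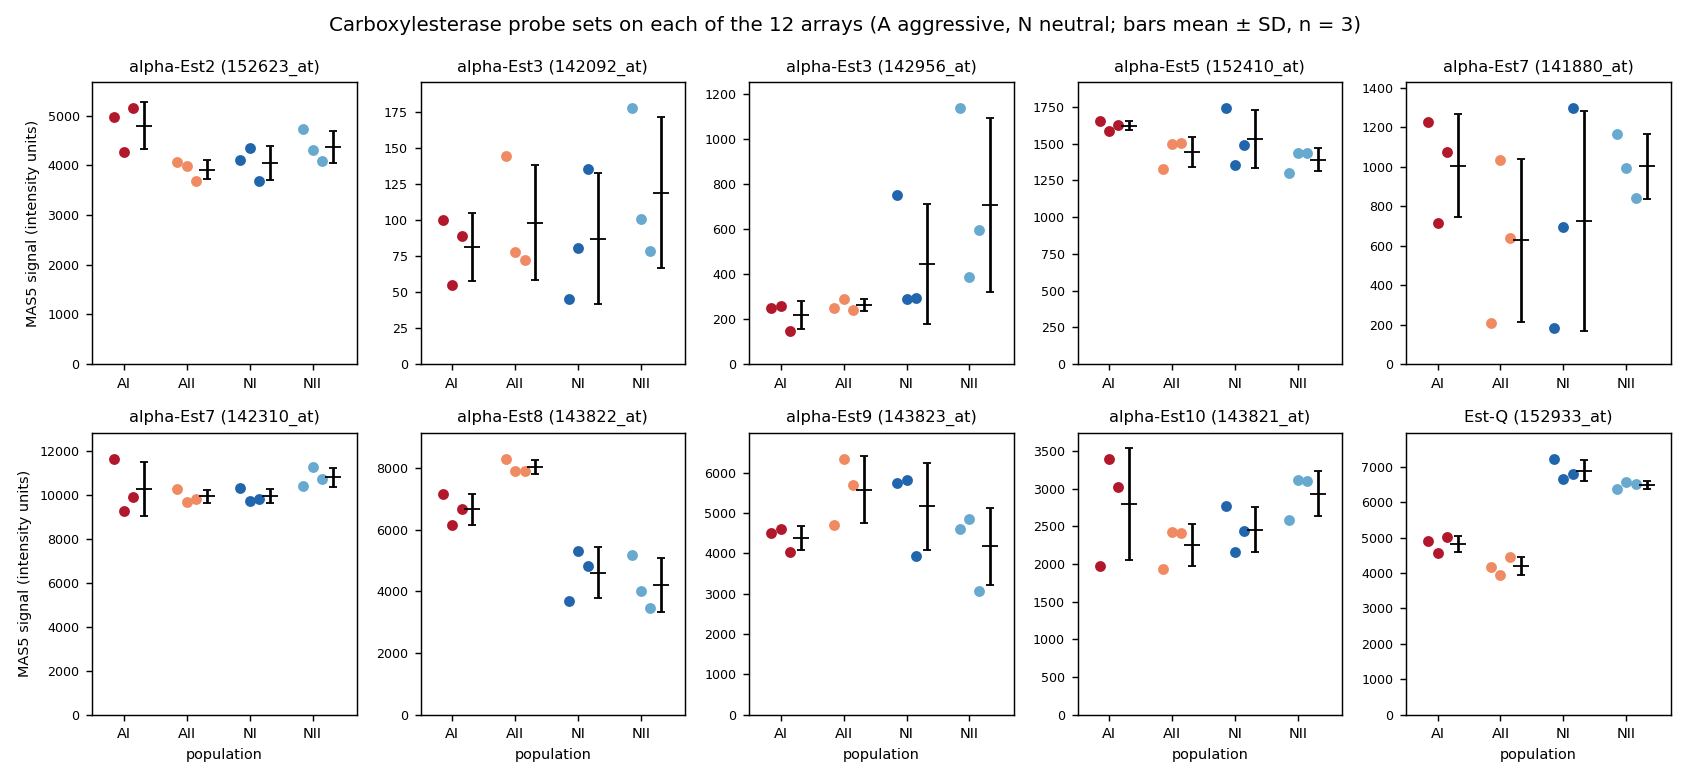
MAS5 signal (y axis, intensity units, from 0, a separate scale per panel) of the 10 carboxylesterase probe sets in each population (x axis, AI and AII aggressive, NI and NII neutral). Points are arrays, and black bars the mean ± SD with n = 3. Est-Q is lower and alpha-Est8 higher on all 6 aggressive arrays, and the other panels overlap.

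By a fit with population as a random block, 2 of the 8 probe sets passed an adjusted p of 0.05 in this contrast, 1 higher (alpha-Est8) and 1 lower (Est-Q), against 0.191% of all probe sets. The 2 calls are the reason these genes were chosen, and nothing is read from the count. The same genes are the 2 of 8 whose regimes did not overlap, against 1.23% of all probe sets. Calls were lost in fits without 1 array, for arrays of several populations. The log2 differences in such fits stayed between -0.58 and -0.51 for Est-Q and between 0.69 and 0.81 for alpha-Est8. Est-Q was not called without aggressive II array 1 (log2 difference -0.53) or 3 (-0.54), neutral I array 1 (-0.53) or 2 (-0.54), or neutral II array 2 (-0.54) or 3 (-0.55). Alpha-Est8 was not called without aggressive I array 1 (0.75) or 3 (0.77), any 1 array of aggressive II (0.72, 0.74 and 0.74 for arrays 1, 2 and 3), neutral I array 1 (0.70), or neutral II array 2 (0.74) or 3 (0.69). Neither was called without the 2 arrays least like the others, aggressive I array 2 and neutral I array 3 (-0.55 for Est-Q and 0.82 for alpha-Est8).

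Across the 4 pairs of an aggressive with a neutral population, which share arrays, the difference of Est-Q ran from -0.69 (aggressive II minus neutral I) to -0.40 (aggressive I minus neutral II). For alpha-Est8 it ran from 0.60 (aggressive I minus neutral I) to 0.91 (aggressive II minus neutral II). For both genes the means of aggressive II lay farther from the neutral means than those of aggressive I.

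**Figure D2:**
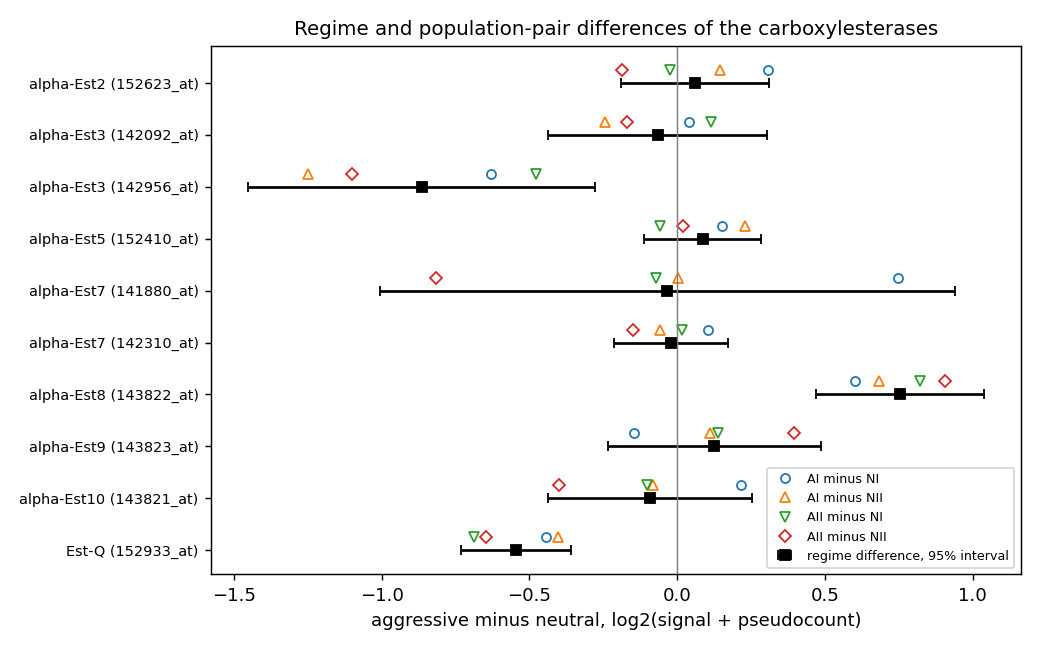
Difference in log2(signal + pseudocount) between aggressive and neutral heads (x axis) for each probe set (y axis). Squares are regime differences with 95% intervals, open symbols the 4 population pairs. Alpha-Est8 lies at 0.75 and Est-Q at -0.55 with all 4 pairs on one side of 0. The alpha-Est3 probe set 142956_at, below the brightness filter, lies at -0.86 with the widest scatter of its pairs among those on one side.

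Alpha-Est9 (CG1128) and alpha-Est10 (CG1131), esterase genes at the same end of the block as alpha-Est8, overlapped between regimes. The signal of alpha-Est9 in AI, AII, NI and NII was 4384 ± 299.5, 5579.6 ± 825.6, 5167 ± 1079 and 4175 ± 960.1 (SD, n = 3). For alpha-Est10 it was, in that order, 2796 ± 742.4, 2257 ± 278.7, 2457 ± 303.2 and 2936 ± 302.5. Their regime differences were 0.12 (SE 0.17) and -0.09 (SE 0.16), smaller than their SE. Alpha-Est10 read 1968 on AI array 1, and 3401 and 3021 on the other 2 arrays of that population.

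Alpha-Est7 (CG1112), an esterase gene with a known part in lipid metabolism and insecticide tolerance, was read by 2 probe sets that did not agree in spread. The bright probe set 142310_at stayed between 9291 and 11664 on all 12 arrays, with a regime difference of -0.02 (95% interval -0.21 to 0.17). The dim one, 141880_at, ran from 181.8 to 1299 and varied 7.14-fold, with a regime difference of -0.03 and an interval from -1.01 to 0.94. The pair correlated with r = 0.20 (Spearman rho 0.31) over the 12 arrays, and the precise value for alpha-Est7 rests on the bright probe set.

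Alpha-Est2 (CG2505) had a signal of 4800.2 ± 467.3, 3916 ± 195.6, 4045 ± 345 and 4376 ± 326.1 in AI, AII, NI and NII (SD, n = 3). Alpha-Est5 (CG1089) read 1587 to 1652 on the AI arrays, 1326 to 1505 on the AII arrays, 1352 to 1742 on the NI arrays and 1299.9 to 1436 on the NII arrays. Both are esterase genes of the far end of the block. Their regime differences were 0.06 (95% interval -0.19 to 0.31) and 0.09 (-0.11 to 0.28), and both intervals end below the value of alpha-Est8.

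Alpha-Est3 (CG1257) was dim on both probe sets. The dimmer, 142092_at, lay between 44.9 and 177.7 and overlapped fully. The other, 142956_at, read 249.1, 258.1 and 148.7 on the AI arrays and 249.7, 290.8 and 241.7 on the AII arrays. On the NI arrays it read 751.2, 288.3 and 292.3, and on the NII arrays 1139, 388.7 and 596.3. All but 1 of the aggressive arrays lay below every neutral array, and that one, aggressive II array 2, lay above neutral I array 2 alone. The neutral arrays spread 3.95-fold among themselves. Without the filter its difference was -0.86 (SE 0.27, 95% interval -1.45 to -0.28), whereas that of 142092_at was -0.07 (SE 0.17).

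The populations of the same regime were then compared, by contrasts other than the one used to choose the genes. No member passed between aggressive I and aggressive II (0 of 8, limma with Benjamini-Hochberg adjustment, against 0.597% of all probe sets), and 2 of 8 had an unadjusted p under 0.05, against 12.9% of all. The smallest adjusted p was that of alpha-Est2, higher in aggressive I by 0.33 (SE 0.12, 95% interval 0.06 to 0.60, limma adjusted p = 0.283). Est-Q was higher in aggressive I by 0.24 (SE 0.094, 95% interval 0.04 to 0.45, limma adjusted p = 0.304). Alpha-Est8 had the opposite sign, with -0.22 (SE 0.17, 95% interval -0.60 to 0.15, limma adjusted p = 0.63).

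In 5 of the 8 probe sets the 3 arrays of aggressive I did not overlap those of aggressive II, against 18.1% of all probe sets (18.6% on the centred log2 scale, where the same 5 were apart). Alpha-Est2, alpha-Est5 and Est-Q were higher in aggressive I, and alpha-Est8 and alpha-Est9 lower. The median size of the difference over the 8 probe sets was 0.26, against 0.17 over all 8379.

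No member passed between neutral I and neutral II (0 of 8 by limma, against 0.286% of all probe sets), and 0 of 8 had an unadjusted p under 0.05, against 8.43% of all. Est-Q differed by 0.04 (95% interval -0.17 to 0.25) and alpha-Est8 by 0.08 (95% interval -0.29 to 0.46). The largest differences were -0.74 for the dim alpha-Est7 probe set (SE 0.56), which was -0.098 without neutral I array 1, its lowest at 181.8, and -0.30 for alpha-Est10 (SE 0.19, limma adjusted p = 0.686). Est-Q and the bright alpha-Est7 probe set were the 2 of 8 without overlap of the neutral populations in deposited signal, against 14.8% of all. After centring alpha-Est7 alone was left.

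Whether population I minus population II differed between regimes was tested as an interaction, aggressive I minus aggressive II less neutral I minus neutral II. This contrast compares signed differences, so it does not show in which regime the populations lie farther apart. It passed for 0 of 8 members (limma, against 0.43% of all probe sets), and 2 of 8 had an unadjusted p under 0.05, against 11.6% of all. These were alpha-Est2, with 0.49 (SE 0.17, 95% interval 0.11 to 0.87, limma adjusted p = 0.309), and alpha-Est10, with 0.62 (SE 0.26, 95% interval 0.03 to 1.20, limma adjusted p = 0.403). For alpha-Est10 the 2 differences were of similar size, 0.32 between the aggressive and -0.30 between the neutral populations. Alpha-Est2 and alpha-Est10 both had the higher mean in aggressive I within the aggressive regime and in neutral II within the neutral regime. A large positive interaction favours this order. Both alpha-Est7 probe sets had it too, alpha-Est8 and alpha-Est9 had the reverse, and alpha-Est5 and Est-Q were higher in population I of both regimes. The summed fat body signal, most of it from the single gene Lsp2, had the same order as alpha-Est2 and alpha-Est10. It was 95617 to 102892 in AI above 67153 to 75234 in AII, and 97346 to 106120 in NII above 58930 to 70039 in NI. Its part in the alpha-Est2 and alpha-Est10 values was not tested. For Est-Q the interaction was 0.21 (95% interval -0.09 to 0.50) and for alpha-Est8 -0.30 (95% interval -0.83 to 0.23).

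**Figure D3:**
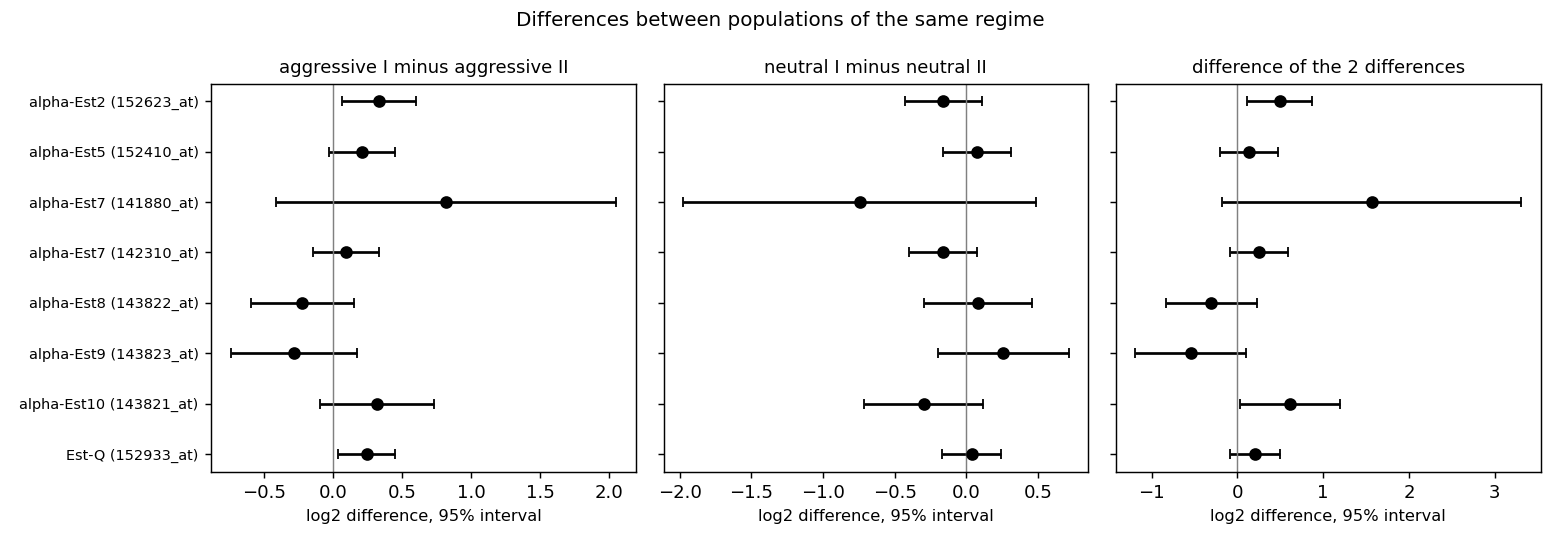
Log2 differences (x axis, with 95% intervals) of the 8 probe sets above the filter (y axis) between the aggressive populations, between the neutral populations, and for the difference of these differences. No probe set passed after adjustment over 8379 probe sets. The dim alpha-Est7 probe set has the widest intervals.

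The precision differed between members. The SD between arrays of a population was 0.068 on the log2 scale for Est-Q and 0.21 for alpha-Est8, beside a median of 0.22 over all tested probe sets. It was 0.10 for alpha-Est5 and for the bright alpha-Est7 probe set, 0.13 for alpha-Est2, 0.24 for alpha-Est10, 0.27 for alpha-Est9 and 0.79 for the dim alpha-Est7 probe set. Est-Q was thus the member with the tightest replicates. A small spread favours passing the regime contrast by which this gene was chosen, so nothing more is read from it.

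In the order of the RefSeq gene table (Release 6 plus ISO1 MT, used here for order only) alpha-Est8 lies between Mics1 and Ubc84D, with alpha-Est10 and alpha-Est9 on one side and alpha-Est7, alpha-Est6, alpha-Est5, alpha-Est4, alpha-Est3, alpha-Est2 and alpha-Est1 on the other. Mics1, a mitochondrial inner membrane gene next to alpha-Est8, differed by 0.27 (SE 0.32) between regimes. The 2 probe sets of alphaTub84D, an alpha-tubulin gene within the block, gave -0.17 (SE 0.16) and 0.08 (SE 0.11). Beside Est-Q, Glg1 on one side gave 0.07, -0.03 and -0.15 on its 3 probe sets, and M6 on the other -0.19 and 0.07. The neighbours are shown around genes chosen for their difference, so that these stand apart follows from the choice and is no finding about the block. Adjacent esterase genes are paralogs, and hybridisation of one gene's RNA to another's probes was not tested.

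**Figure D4:**
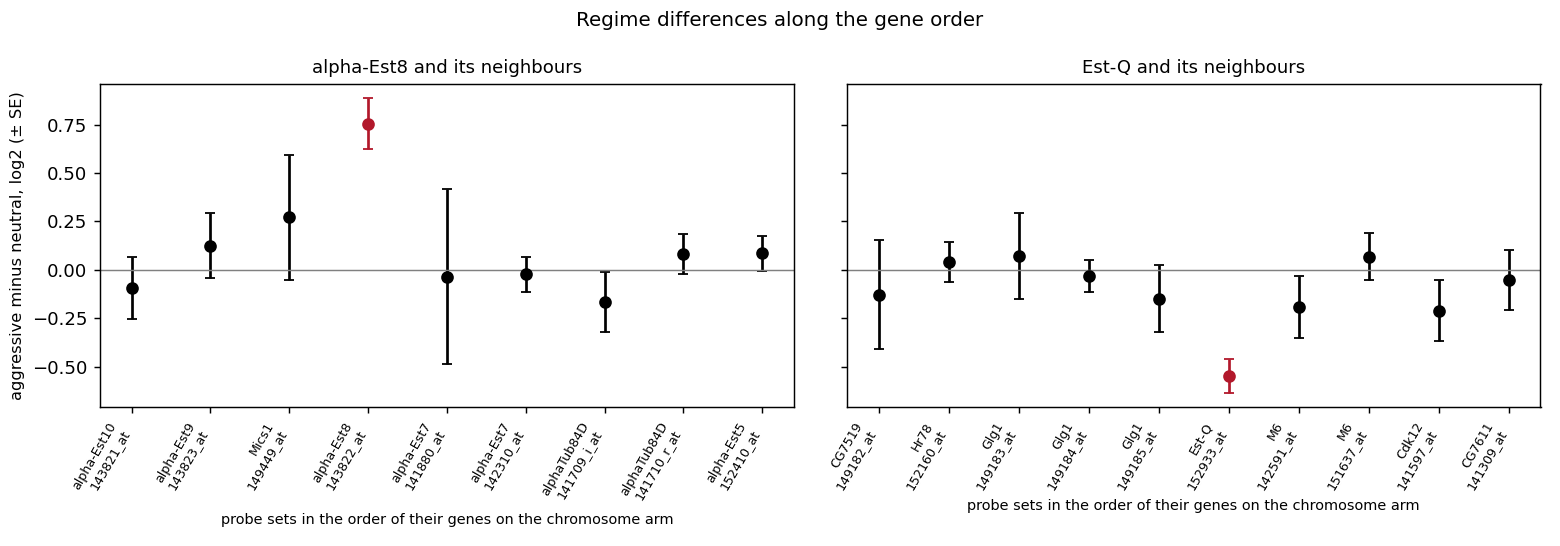
Aggressive minus neutral log2 difference (y axis, ± SE) of alpha-Est8 and of Est-Q (red) and of the probe sets of the 3 nearest tested genes on each side (black, x axis in gene order). Alpha-Est8 stands at 0.75 and Est-Q at -0.55, and all their neighbours shown lie between -0.21 and 0.27.

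Over the 12 arrays the members did not vary together as a set. The 28 pairs of tested probe sets had a median r of 0.06, and 18 of the 28 were above 0. The strongest pair was Est-Q with alpha-Est8, with r = -0.89 (Spearman rho -0.87). These points share their regime, by which both genes were chosen, and with population means removed r was -0.13. The next pair was alpha-Est2 with the bright alpha-Est7 probe set, with r = 0.59 (rho 0.62), and 0.46 with population means removed. With population means removed, the 28 pairs had a median r of 0.05. They ran from -0.74 (alpha-Est5 with alpha-Est8) to 0.57 (alpha-Est2 with alpha-Est8). No median over other probe sets is given beside these. With 12 arrays in 4 populations these correlations describe the arrays and are not tests.

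**Figure D5:**
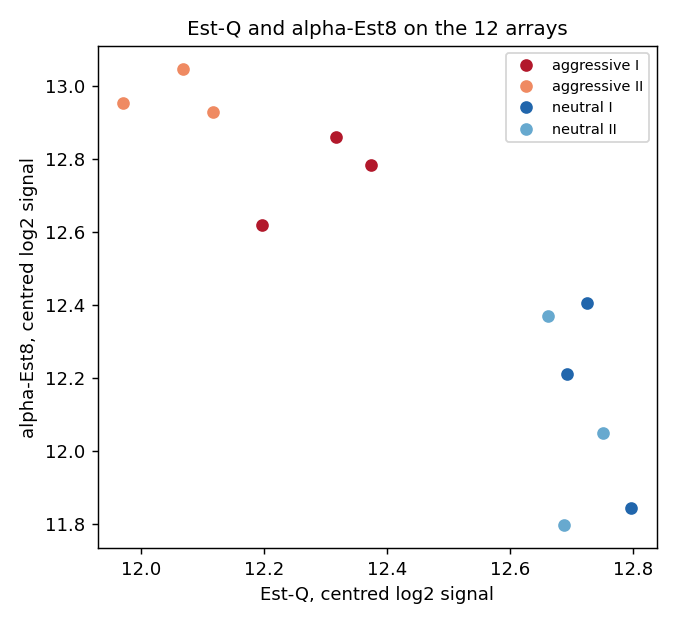
Centred log2 signal of Est-Q (x axis) against alpha-Est8 (y axis), 1 point per array, coloured by population. The aggressive and neutral arrays form separate groups, which give r = -0.89 over all 12 arrays, against -0.13 with population means removed.

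Among 7460 other named probe sets, the 3 most like Est-Q over the 12 arrays were those of CG11458 (r = 0.98), PGRP-SC2 (r = 0.97), which breaks down bacterial cell wall fragments, and Obp56a (r = 0.96), an odorant-binding protein. With population means removed, r was 0.26, 0.72 and -0.35. Most like alpha-Est8 were Mlc1, a myosin light chain (r = 0.92), flap (r = 0.92) and CG3955 (r = 0.91). With population means removed, they had r of 0.58, 0.63 and 0.72. All 6 likenesses were picked as the highest among these probe sets over arrays that share the regime split.

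Measures of the arrays stand beside the alpha-Est8 and Est-Q results. Bacterial spike-in probes had a mean log2 signal of 10.04 to 10.26 on aggressive and 9.96 to 10.12 on neutral arrays. The summed signal of the muscle markers, of which 2 of 4 genes (Mlc2 and up) had probe sets, was 52473 to 63034 in aggressive and 51390 to 56264 in neutral arrays, with all 3 arrays of aggressive II above every neutral array. The ratio of 3′ to 5′ signal of the GAPDH control, a sign of RNA integrity, was 3.28 to 5.03 (mean 4.38) on aggressive and 3.04 to 4.79 (mean 3.85) on neutral arrays. The same ratio of the actin control lay the other way, with 1.36 to 3.09 (mean 2.16) on aggressive and 1.76 to 3.43 (mean 2.49) on neutral arrays. All of these overlapped between regimes, and their part in the results was not tested.

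Of 24 further genes of the carboxylesterase family, 22 had probe sets (29 in all), and 17 probe sets of 12 genes were above the filter. In the regime comparison 0 of 17 passed by limma (0.191% of all probe sets), and 2 had an unadjusted p under 0.05 (6.78% of all). Est-Q and alpha-Est8, which had passed this contrast, were placed among the members. A low count among the remaining esterases thus follows in part from the choice, and the values of this contrast are a description here too. None of the 17 had regimes without overlap, against 1.23% of all probe sets. The median difference was 0.003, beside 0.007 over all probe sets. In the block itself, alpha-Est6 was below the filter (113.2 to 698.6), as was Est-P, the neighbour and close paralog of Est-6 (33.5 to 343.7). Ace, the acetylcholinesterase of cholinergic synapses, differed by 0.003 (SE 0.096), and the neuroligin gene Nlg2, which encodes a synaptic adhesion protein, by -0.14 (SE 0.11). The largest regime difference was that of 1 of 3 Nlg3 probe sets, with 0.95 (SE 0.22), the others being at -0.52 and -0.01.

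Between aggressive I and aggressive II 0 of the 17 passed (0.597% of all probe sets), with 4 at an unadjusted limma p under 0.05 (12.9% of all). The secreted esterase-like glutactin gene Glt had the smallest adjusted p, higher in aggressive I by 0.44 (SE 0.10, limma adjusted p = 0.104), with a signal of 16531 ± 1038 against 12553 ± 734.8 in aggressive II (SD, n = 3). CG6018 (gas) was higher by 1.15 (SE 0.42, limma adjusted p = 0.279) and clt, cricklet, by 0.54 (SE 0.18, limma adjusted p = 0.235). Between the neutral populations 0 of 17 passed by limma (0.286% of all), with 3 at an unadjusted p under 0.05 (8.43% of all). For the interaction 0 of 17 passed by limma (0.43% of all), with 4 at an unadjusted p under 0.05 (11.6% of all).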

How the data were processed

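The deposited values are MAS5 probe set intensities on a linear scale, per the submitters' processing notes, and the version is not given in the sources used here. From the values, the authors scaled every array to a trimmed mean of 2500 (2% of probe sets left out at each end), so total RNA per array is not measured. Probe sets were named from the array's annotation table, with symbols updated through RefSeq.

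Intensities were transformed as log2(intensity + 94.6), the 10th percentile of all values, and centred on each array's median. This scale understates changes of dim probe sets. The 44 control probe sets and those with a mean below the 40th percentile were left out. limma 3.58.1 in R 4.3.3 fitted fixed means of the 4 populations over all 12 arrays. For the regime difference, population was a random block (statmod 1.5.0, consensus correlation 0.064). P-values were adjusted by Benjamini-Hochberg over all 8379 probe sets, with a threshold of 0.05. The number of arrays limits the precision. The fits were run on simulated data with planted changes and independent noise on each array. For the regime fit the simulated populations did not differ within a regime, so the random block was not checked.

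The members and gene lists were chosen with earlier results of these data known. Named genes are all members, some further esterases, and for Est-Q and alpha-Est8 the 3 probe sets with the highest r. The further esterases include some with the largest differences, some with smaller ones (Ace and Nlg2) and some below the filter (alpha-Est6, Est-P and Jhedup). The alternatives tried were other pseudocounts, filters, scalings and variance priors, a replicate block, and fits with fewer arrays.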

Additional observations from a re-analysis of the deposited data

How the results depend on the processing

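In both comparisons within regimes and in the interaction, the count of members passing was 0 under each alternative run (other pseudocounts, filters, scalings and priors, the replicate block, fits on 6 arrays, and each array left out). In the regime contrast, described without a test, the count of members called was 2 in the main setting. It was 0 without the filter, 0 with a replicate block, 0 without the 2 arrays least like the others (added after seeing the data), and from 0 to 2 without 1 array. Est-Q was called in 13 of 22 alternatives and alpha-Est8 in 11. The log2 difference ran from -0.58 to -0.51 for Est-Q and from 0.69 to 0.82 for alpha-Est8. The cause of lost calls was not tested. The fits that lost them had fewer arrays, more probe sets or, with the replicate block, the same arrays and probe sets. Without 1 array, the sign turned for 3 small differences within regimes, whose ranges were -0.0011 to 0.17 (bright alpha-Est7 probe set, aggressive I minus aggressive II), -0.012 to 0.14 (alpha-Est5, neutral I minus neutral II) and -0.056 to 0.24 (alpha-Est8, neutral I minus neutral II). In the regime contrast it turned for both alpha-Est7 probe sets, with ranges of -0.37 to 0.25 (dim) and -0.067 to 0.012 (bright). Same-numbered arrays were little more alike than others. Their deviations had a median r of 0.018, against -0.0061 for arrays of different number. Of the same-numbered pairs 0 of 18 were over 0.1, and 6 of 12 arrays deviated most like one of their own number. Dim signal limits alpha-Est3, and the 2 populations per regime limit every statement about selection.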

Other observations

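Probe sets of one gene disagreed beyond the members. For the neuroligin gene Nlg3, probe set 149451_at read 1018 ± 113.4, 1219.6 ± 203.4, 757.9 ± 261.2 and 393 ± 69.2 in AI, AII, NI and NII (SD, n = 3). In the same order 149450_at read 708.7 ± 235.4, 524.7 ± 220.5, 927.7 ± 24.6 and 858.5 ± 171.2. The regime order is opposite in the 2 probe sets, which was not tested and was picked after the values were seen. The juvenile hormone esterase duplication gene Jhedup, below the filter, read 448.2 ± 110.0 in aggressive II and 355.7 ± 104.5 in neutral II, against 279.6 ± 42.5 in aggressive I and 212.6 ± 37.8 in neutral I. Jhedup too was picked after the values were seen, and its differences were not tested.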
